A study of Mus musculus with 6 samples.

Results

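Molecular chaperones of the cytosol and the mitochondria, with their co-chaperones and the heat-shock factors that control them, were examined in haematopoietic stem cells of mice labelled Thbs1 knockout and of controls. The 50 genes were taken by symbol from the 52183 genes of the deposited expression table, and each symbol matched 1 row. They comprise the HSP70, HSP110, HSP40, HSP90, HSP60 and HSP10 proteins, the 8 subunits of the cytosolic chaperonin TRiC, cofactors of HSP70 and HSP90, the small heat-shock protein Hspb1, and the factors Hsf1 and Hsf2. One of them, Hspa13, is known as an HSP70-like protein of microsomes, so the set is not wholly cytosolic and mitochondrial.

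The study sequenced RNA of stem cells sorted from bone marrow, in 3 libraries labelled Thbs1 knockout and 3 labelled control. Thbs1 encodes the matrix protein thrombospondin 1, and the comparison asks which transcripts of the stem cell differ when it is deleted. All mice of both groups were labelled female and 4 months of age, the cells were sorted into TRIzol-LS, and 2 ng of RNA entered each library. The labels do not name the strain, the deleted part of Thbs1, whether the deletion was in all tissues, or whether each library came from its own animal, so the p-values speak only to how much these libraries vary, and that variation may be technical.

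Chaperones bind unfolded stretches of other proteins and let them fold, travel or be broken down. HSP70 works in cycles of ATP use: HSP40 proteins deliver the client and start ATP hydrolysis, and HSP110 and BAG proteins release the spent nucleotide. HSP90 takes over kinases and steroid receptors at a later stage of folding, TRiC folds actin and tubulin inside its closed chamber, and HSP60 with its HSP10 lid does so for proteins imported into mitochondria. When unfolded proteins accumulate, HSF1 trimers bind heat-shock elements, which are inverted repeats of the letters GAA spaced by a pair of bases, and raise transcription of many of these genes. Blood stem cells are known for a low rate of protein synthesis and a tight control of protein quality.

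Levels are in FPKM, which divides the fragments of a gene by its exon length and by the depth of the library. Levels of different genes can be set side by side only as far as the annotated exon length fits the transcripts made. Depth read from the values was 25750000 to 30900000 reads in knockout and 22730000 to 25940000 in control libraries. Thbs1 itself stood at 10.8, 8.5 and 7.68 FPKM in knockout libraries, against 4.12, 13.8 and 2.33 FPKM in control libraries, so its level does not bear out the label (p = 0.5 in a two-sided exact permutation test whose smallest p with 3 libraries a group is 0.1), and directions below follow the labels alone. The 10 stem cell markers checked were all tested, and 1 of them fell, Ly6a, at 76.9 FPKM in knockout and 115 FPKM in control libraries (limma adjusted p = 0.0286). Over all tested genes 0.996% were called lower. At an unadjusted p below 0.05 by limma there were 5 of the 10 markers, against 16.4% of all tested genes. The groups did not overlap in 2 markers that were higher in knockout libraries and 3 that were lower, against 12.6% and 10.1% of all. Markers of mature blood cells were present in part: Cd3e, Csf1r, Alas2 and Ltf each averaged under 1 FPKM in both groups, while Lyz2 averaged 345 FPKM in knockout and 367 FPKM in control libraries. Summed levels of 6 megakaryocyte markers ranged over 278.5 to 389.9 FPKM in knockout and 400.9 to 508.9 FPKM in control libraries, and those of 8 T and NK cell markers over 52.5 to 64.2 FPKM in knockout and 75.2 to 101.5 FPKM in control libraries. The 8 B cell markers summed to 24.3 to 27.8 FPKM in knockout and 29.3 to 31.1 FPKM in control libraries, and the 6 stromal and endothelial markers to 8.13 to 9.85 FPKM in knockout and 9.93 to 11.5 FPKM in control libraries. These 4 sums were lower in knockout libraries without overlap, whereas other sums overlapped. Monocyte and macrophage markers summed to 334.2 to 367.5 FPKM in knockout and 356.8 to 398.9 FPKM in control libraries, and granulocyte markers to 61.3 to 72.8 FPKM in knockout and 71.2 to 97.2 FPKM in control libraries. Erythroid markers summed to 59.8 to 128.9 FPKM in knockout and 95.1 to 115.6 FPKM in control libraries, and mast cell and basophil markers to 5.8 to 10.7 FPKM in knockout and 6.56 to 10.2 FPKM in control libraries. Of all these markers Nkg7 and Hbb-bt fell, and the part of other cells in the chaperone results was not tested. In bulk RNA, fewer cells of a type and less RNA per cell cannot be told apart.

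A few single genes of the HSP70 system were higher in the libraries labelled Thbs1 knockout, and most members, HSP90 and TRiC among them, were not called on the FPKM scale. Of 50 members, 47 reached 1 FPKM in at least 3 libraries and were tested with limma on log2(FPKM + 1). At an adjusted p below 0.05, 7 rose, 0 fell and 40 were not called. The 7 were the HSP70 genes Hspa8 and Hspa1b, the HSP110 gene Hsph1, the HSP40 genes Dnaja1 and Dnajb1, Stip1, which bridges HSP70 to HSP90, and Fkbp4, an HSP90 co-chaperone. Over all 12555 tested genes, 0.566% were called higher and 0.996% lower. At an unadjusted p below 0.05 there were 24 of 47 members, against 16.4% of all tested genes; 22 were higher in knockout libraries, against 8.92% of all, and 2 lower, Bag6 and Ptges3, against 7.46%. The groups did not overlap in 25 members that were higher in knockout libraries, where 12.6% of all tested genes were so, and in 3 that were lower, where 10.1% were so. The median log2 change, knockout minus control, was 0.16 for the members and 0.01 for all tested genes. Hspa8, Hspa1b, Hsph1 and Dnaja1 stayed called whichever library was left out. Dnajb1 lost its call in each of those 6 fits (adjusted p 0.0563 to 0.102), and Stip1 and Fkbp4 lost theirs in 5 of 6, holding it only without control library 3 (adjusted p 0.0249 to 0.112 for Stip1 and 0.0496 to 0.14 for Fkbp4).

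**Figure D1:**
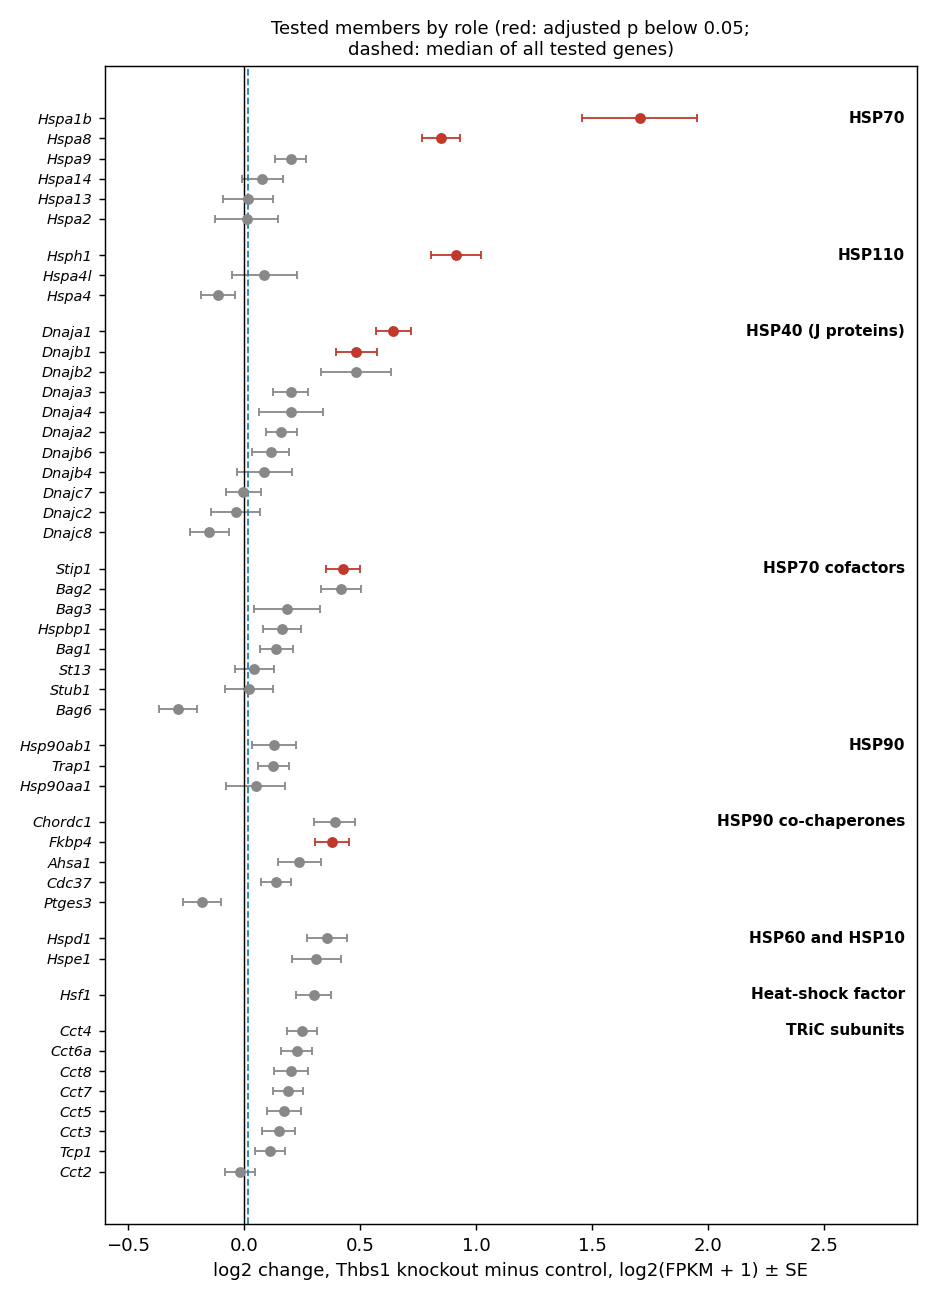
Log2 change of each of the 47 tested members, knockout minus control on the log2(FPKM + 1) scale, grouped by role; points are fitted changes, bars are limma standard errors, red marks an adjusted p below 0.05 and the dashed line is the median of all tested genes (0.01). The 7 red members run from 0.38 for Fkbp4 to 1.70 for Hspa1b, and the 8 TRiC subunits lie between -0.02 and 0.25.

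Hspa8 (ENSMUSG00000015656, GRCm38 chromosome 9, 40800984 to 40810087) encodes HSC70, the HSP70 that is made without stress. Its level was 667, 602 and 592 FPKM in knockout libraries 1 to 3 and 359, 321 and 352 FPKM in control libraries 1 to 3. The lowest knockout library was far above the highest control, and the ratio of the means was 1.80 (log2 change 0.85 ± 0.08 SE, limma adjusted p = 0.000921). Among the members only Hsp90ab1 had a higher mean level, and there were 31890 to 88614 reads behind each value of Hspa8. Of 6 near-identical copies of its sequence in the annotation, Gm8355 had the highest level among those listed in the table, at 1.57 FPKM on average in knockout and 0.95 FPKM in control libraries.

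Hspa1b (chromosome 17, 34956436 to 34959238) and Hspa1a (chromosome 17, 34969190 to 34972156) encode the stress-inducible HSP70. Hspa1b stood at 10.1, 5.99 and 4.27 FPKM in knockout libraries and at 0.950, 1.41 and 1.51 FPKM in control libraries (log2 fold change 1.70 ± 0.25 SE, limma adjusted p = 0.0112). Knockout library 1 was well above the other two, and all 3 knockout libraries were above all controls. Hspa1a stood at 1.82, 0.6 and 0.93 FPKM in knockout and 0.1, 0.15 and 0.25 FPKM in control libraries and was below the 1 FPKM filter, with 46 to 167 reads in knockout and 8 to 17 in control libraries. After rescaling to TPM it passed the filter and was called higher (log2 change 1.52, limma adjusted p = 0.0267), and without a filter it was not (limma adjusted p = 0.426). The transcripts of Hspa1a and Hspa1b are 99.2% identical over 2201 bases, so which of the pair a read belongs to is uncertain. Put into 1 row, the pair summed to 11.9, 6.59 and 5.20 FPKM in knockout and 1.05, 1.56 and 1.76 FPKM in control libraries, a 5.42-fold ratio of means (log2 change 1.80 ± 0.25 SE, limma adjusted p = 0.00932).

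The remaining HSP70 members were not called. Hspa9, the mitochondrial HSP70 mortalin that pulls proteins through the inner membrane, stood at 156, 166 and 174 FPKM in knockout and 140, 149 and 142 FPKM in control libraries without overlap (log2 change 0.20 ± 0.07 SE, limma adjusted p = 0.186). Hspa14, which acts at the ribosome, averaged 29.1 ± 1.44 FPKM in knockout and 27.6 ± 2.60 FPKM in control libraries (SD, n = 3 each). Hspa2, best known from the testis, averaged 7.13 ± 1.32 FPKM in knockout and 7.02 ± 0.659 FPKM in control libraries, and Hspa13 averaged 7.54 ± 0.0781 FPKM in knockout and 7.49 ± 0.966 FPKM in control libraries. All 3 overlapped between groups.

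**Figure D2:**
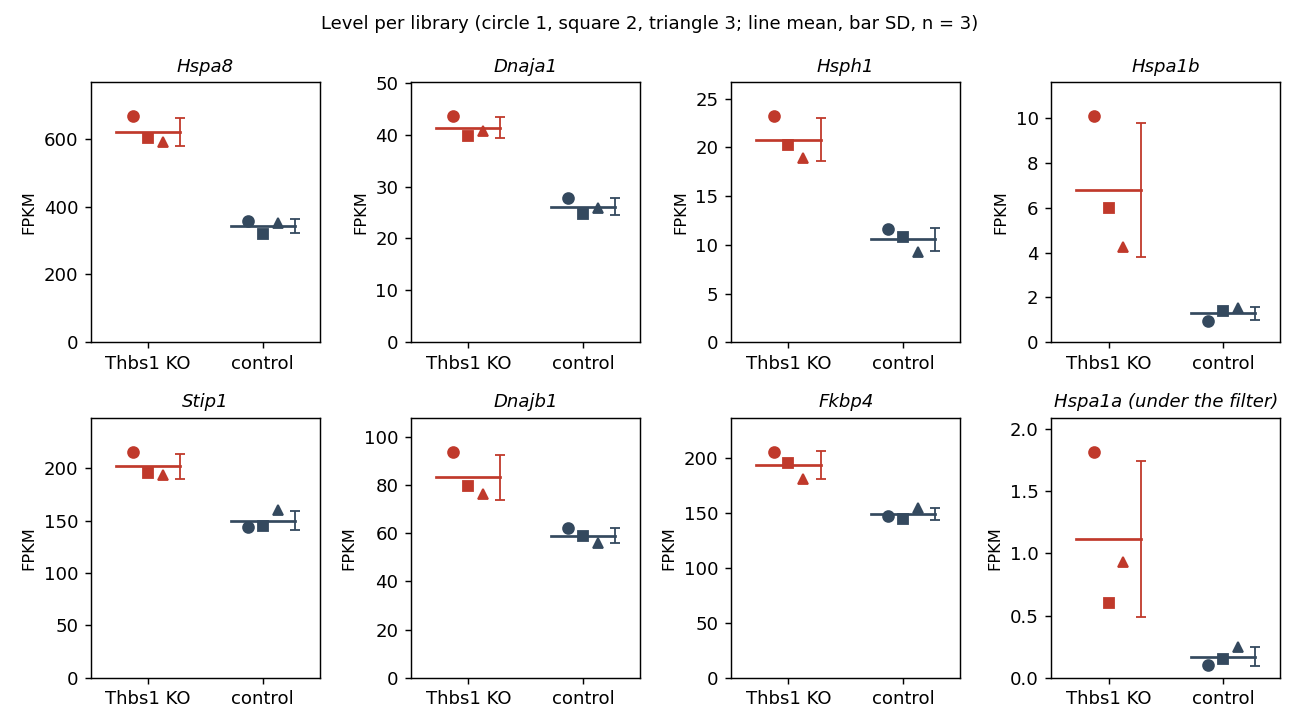
FPKM in every library for the 7 called members and Hspa1a, each panel with its own axis from 0; lines are means and bars SD of 3 libraries, with knockout left and control right. In all 8 panels every knockout library lies above every control library, and knockout library 1 (circle) is the highest.

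Hsph1 (chromosome 5, 149614287 to 149636376) encodes HSP105, an HSP110 that exchanges the nucleotide of HSP70. It stood at 23.2, 20.2 and 18.9 FPKM in knockout and 11.6, 10.8 and 9.29 FPKM in control libraries, a ratio of means of 1.97 with no overlap (log2 change 0.91 ± 0.11 SE, limma adjusted p = 0.00383). The other HSP110 genes were not called. Hspa4 stood at 25.2, 26.3 and 28.5 FPKM in knockout and 28.8, 28.5 and 29.5 FPKM in control libraries, lower in knockout without overlap, if barely (log2 change -0.11 ± 0.07 SE, limma adjusted p = 0.489). Hspa4l averaged 4.31 ± 0.681 FPKM in knockout and 4.00 ± 0.566 FPKM in control libraries (SD, n = 3 each).

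Among 11 HSP40 members, 2 rose and 9 were not called. Dnaja1 (chromosome 4, 40722150 to 40737149), a class A partner of HSC70, stood at 43.5, 39.8 and 40.7 FPKM in knockout and 27.8, 24.8 and 25.8 FPKM in control libraries (log2 fold change 0.64 ± 0.08 SE, limma adjusted p = 0.00381). The libraries of each group lay close together and the groups were well apart. Its exons share 608 bases, or 7.05% of its exon length, with Smu1 on the other strand, and the library kit does not mark strand. Dnajb1 (chromosome 8, 83608193 to 83612653), the class B partner that helps HSP70 pull aggregates apart, stood at 93.9, 79.5 and 76.2 FPKM in knockout and 62.4, 58.7 and 56.1 FPKM in control libraries (log2 fold change 0.48 ± 0.09 SE, limma adjusted p = 0.0332). Dnajb2, which hands ubiquitinated clients to the proteasome, had a fitted change of the same size but a wider spread, at 12.9, 9.36 and 8.17 FPKM in knockout and 6.36, 6.76 and 7.47 FPKM in control libraries (limma adjusted p = 0.152). Dnaja3, the HSP40 of mitochondria, stood at 35.2, 39.6 and 38.3 FPKM in knockout and 31.1, 34.1 and 32.8 FPKM in control libraries without overlap (log2 change 0.20 ± 0.08 SE, limma adjusted p = 0.224). Dnaja2, a class A cytosolic partner, averaged 89.3 ± 4.71 FPKM in knockout and 79.8 ± 2.10 FPKM in control libraries, also without overlap (SD, n = 3 each). Dnaja4, Dnajb4 and Dnajb6 had changes of 0.20, 0.09 and 0.11 with overlapping groups. Of the exon length of Dnaja4, 44.1% is shared with Wdr61 on the other strand. The 3 members of the DNAJC class had fitted changes below 0 with overlapping groups: Dnajc7, which also binds HSP90, had a log2 change of -0.00473, the ribosome-bound Dnajc2 of -0.04, and Dnajc8, a protein of the spliceosome, of -0.15, and all 3 turned to values above 0 when libraries were rescaled to TPM.

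Of 8 further HSP70 cofactors, Stip1 rose and 7 were not called. Stip1 (chromosome 19, 7020702 to 7039967) encodes HOP, which holds HSP70 and HSP90 together during client transfer. It stood at 216, 196 and 194 FPKM in knockout and 144, 145 and 161 FPKM in control libraries (log2 fold change 0.43 ± 0.08 SE, limma adjusted p = 0.0290). Bag2, which blocks the ubiquitin ligase CHIP, narrowly missed the threshold at 22.9, 20.4 and 23.7 FPKM in knockout and 15.4, 17.3 and 16.8 FPKM in control libraries (log2 fold change 0.42 ± 0.09 SE, limma adjusted p = 0.0528). Bag6, which guides tail-anchored and faulty proteins, was the member with the lowest fitted change, at 17.3, 16.3 and 15.4 FPKM in knockout and 21.4, 20 and 19.1 FPKM in control libraries without overlap (log2 change -0.29 ± 0.08 SE, limma adjusted p = 0.13). Bag1, the most abundant BAG gene here, averaged 198 ± 3.41 FPKM in knockout and 180 ± 12.3 FPKM in control libraries (SD, n = 3 each). Bag3, an HSF1 target that feeds autophagy, averaged 7.16 ± 1.41 FPKM in knockout and 6.12 ± 0.639 FPKM in control libraries, with overlap. The nucleotide exchange factor gene Hspbp1 averaged 77.8 ± 3.78 FPKM in knockout and 69.6 ± 6.93 FPKM in control libraries. St13, or HIP, which slows the HSP70 cycle, and Stub1, or CHIP, had changes of 0.04 and 0.02, and Stub1 shares 42.3% of its exon length with Jmjd8.

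None of the 3 HSP90 genes was called on the FPKM scale. Hsp90ab1, the constitutive cytosolic HSP90 and the most abundant member, was at 729, 671 and 650 FPKM in knockout and 608, 573 and 701 FPKM in control libraries (log2 fold change 0.13 ± 0.09 SE, limma adjusted p = 0.546). Hsp90aa1, the inducible form, was at 81.1, 110 and 105 FPKM in knockout and 98.9, 81.6 and 105 FPKM in control libraries (log2 fold change 0.05 ± 0.13 SE, limma adjusted p = 0.894). The call of Hsp90ab1 depends on the scaling, since its log2 change was 0.33 after rescaling to TPM and 0.27 after quantile normalization (limma adjusted p = 0.0157 and 0.00777). Both genes overlapped between groups in FPKM, and Hsp90aa1 was lowest in the knockout library in which Hspa8 was highest. The mitochondrial HSP90 Trap1 was at 82.1, 92.5 and 85.9 FPKM in knockout and 79.4, 79.1 and 80.0 FPKM in control libraries, higher without overlap but not called (limma adjusted p = 0.402, and 0.0211 after rescaling to TPM).

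Of 5 HSP90 co-chaperones, Fkbp4 rose and 4 were not called. Fkbp4 (chromosome 6, 128429735 to 128438677) encodes FKBP52, the immunophilin that supports steroid receptors. It stood at 205, 195 and 180 FPKM in knockout and 147, 145 and 154 FPKM in control libraries (log2 fold change 0.38 ± 0.07 SE, limma adjusted p = 0.0377). Chordc1, which binds HSP90 in its ADP state, was at 21.02, 22.7 and 22.9 FPKM in knockout and 17.3, 17.8 and 15.1 FPKM in control libraries without overlap (log2 change 0.39 ± 0.09 SE, limma adjusted p = 0.0665). Ahsa1, which speeds up the ATPase of HSP90, averaged 58.4 ± 5.29 FPKM in knockout and 49.4 ± 4.89 FPKM in control libraries (SD, n = 3 each), and Cdc37, which brings in kinases, averaged 51.5 ± 1.29 FPKM in knockout and 46.8 ± 1.75 FPKM in control libraries, without overlap for Cdc37. Ptges3, or p23, which locks the closed form of HSP90, stood the other way, at 166, 160 and 178 FPKM in knockout and 181, 182 and 211 FPKM in control libraries (log2 fold change -0.18 ± 0.08 SE, limma adjusted p = 0.3). The pseudogene Ptges3-ps is 100% identical to it over 480 bases and was listed at 37.1 and 36.8 FPKM on average in knockout and control libraries, so the level of Ptges3 is uncertain.

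**Figure D3:**
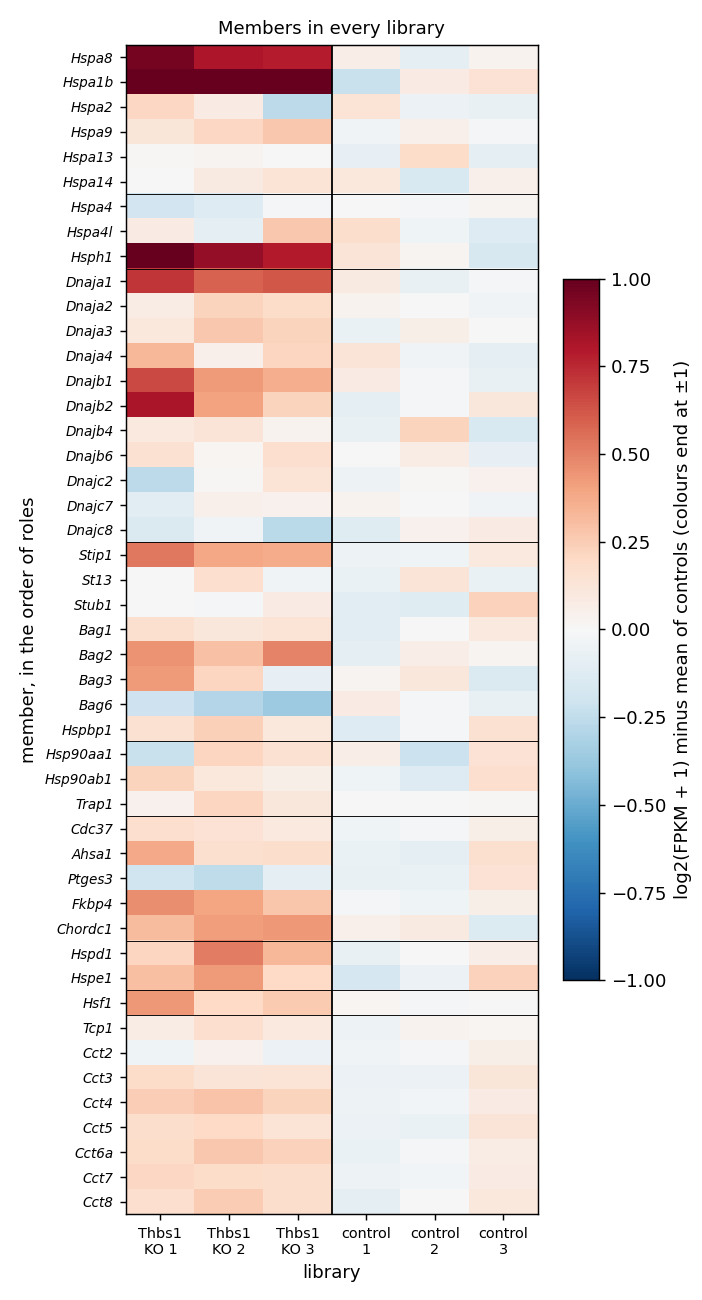
The 47 tested members in rows, by role, and the 6 libraries in columns, knockout left; colour is log2(FPKM + 1) minus the mean of the 3 control libraries, red above and blue below, with the colours ending at ±1. Hspa8, Hspa1b, Hsph1, Dnaja1 and Dnajb1 are red in all 3 knockout libraries, while Hsp90aa1, Dnajc2 and Hspa2 change colour between knockout libraries.

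The pair Hspd1 and Hspe1, HSP60 and its HSP10 lid, lies head to head on chromosome 1 (55077835 to 55088243 and 55088132 to 55091307). Hspd1 stood at 161, 198 and 175 FPKM in knockout and 132, 139 and 145 FPKM in control libraries without overlap (log2 change 0.36 ± 0.09 SE, limma adjusted p = 0.0843). Hspe1 stood at 130, 141 and 121 FPKM in knockout and 93.5, 101 and 124 FPKM in control libraries, where control library 3 lay within the knockout range (log2 change 0.31 ± 0.11 SE, limma adjusted p = 0.187). The annotated exons of the pair share 112 bases, so a small part of their reads may be counted on either. Both were highest in knockout library 2 among the knockout libraries, where Hspa8 and Hspa1b were highest in library 1.

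TRiC subunits had small differences that were called only after rescaling to TPM. Of 8 subunits 0 passed the threshold by limma on the FPKM scale. An unadjusted p below 0.05 was found in 5, against 16.4% of all tested genes. Every knockout library was above every control library in 7, against 12.6% of all. The subunits moved together, so these are not separate results: among control libraries, library 1 was lowest in 7 of 8 and library 3 highest in 7 of 8. After rescaling to TPM, where the median of all genes shifted upward, 7 of 8 were called higher, against 13.2% of all genes tested on that scale. Each of the 7 was called in 1 of 11 alternative fits, the TPM fit, and in 0 of 6 fits that left out 1 library. Their log2 changes ran from 0.31 for Tcp1 to 0.45 for Cct4 (limma adjusted p = 0.0206 and 0.00474), and Cct2 was not called (limma adjusted p = 0.0606). In FPKM Cct4 had the largest fitted change, at 123, 127 and 121 FPKM in knockout and 101, 102 and 110 FPKM in control libraries (log2 fold change 0.25 ± 0.07 SE, limma adjusted p = 0.105). Cct6a stood at 182, 194 and 188 FPKM in knockout and 154, 159 and 169 FPKM in control libraries (limma adjusted p = 0.138). Cct7 stood at 97.2, 95.3 and 94.97 FPKM in knockout and 80.8, 82.2 and 88.8 FPKM in control libraries (limma adjusted p = 0.188). Like Cct4, both were higher in knockout libraries without overlap. Cct8 stood at 233, 247 and 234 FPKM in knockout and 193, 206 and 222 FPKM in control libraries (limma adjusted p = 0.211). Cct5 (0.17), Cct3 (0.15) and Tcp1 (0.11) had smaller log2 changes. Cct2 was the exception, at 108, 114 and 106 FPKM in knockout and 108, 109 and 115 FPKM in control libraries (log2 fold change -0.02 ± 0.06 SE), a change that lay above 0 after rescaling to TPM. Levels per annotated exon length ranged from 69.9 ± 2.40 FPKM for Tcp1 to 296 ± 6.33 FPKM for Cct5 in knockout libraries, and from 64.6 ± 2.08 FPKM to 263 ± 20.5 FPKM in control libraries (SD, n = 3 each). The exon lengths run from 2557 bases for Cct2 to 6778 for Cct7, so this range and the order of subunits depend in part on annotation. In knockout library 1, Cct6a had 20356 reads and Cct7 20351, yet they stood at 182 and 97.2 FPKM. The order of the subunits by mean level was headed by Cct5, Cct8 and Cct6a in both groups. Summed over the complex, the level was 1201, 1240 and 1193 FPKM in knockout and 1029, 1054 and 1147 FPKM in control libraries.

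**Figure D4:**
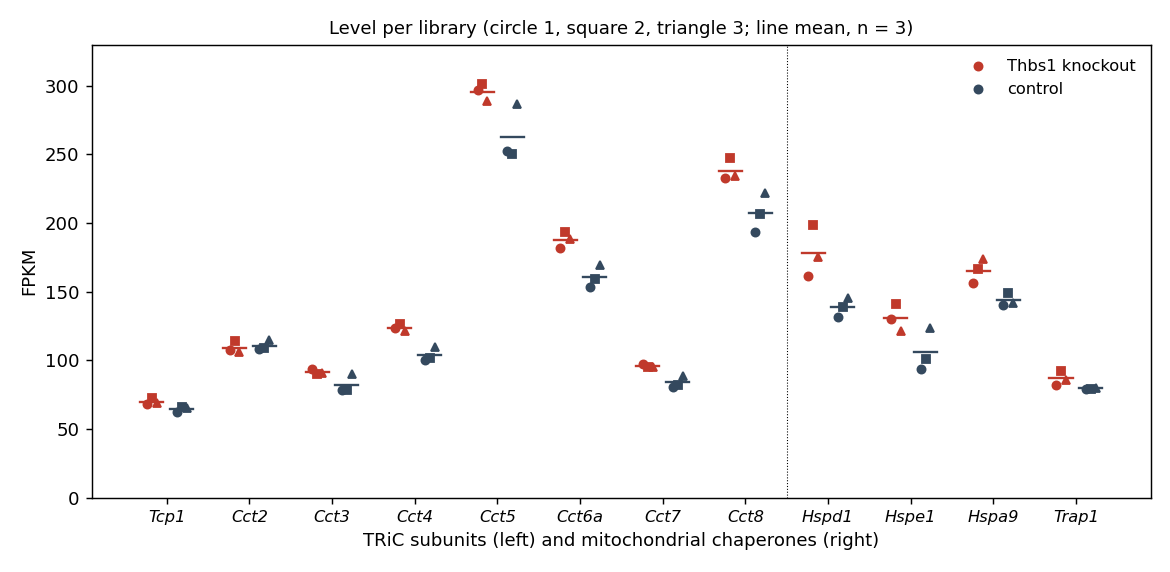
FPKM of the 8 TRiC subunits and of 4 mitochondrial chaperones in every library, knockout left of control within each gene; lines are means of 3 libraries. Cct5 is the highest subunit at 296 and 263 FPKM on average in knockout and control libraries, and Cct2 is the subunit whose groups overlap.

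The heat-shock factors did not reach the threshold. Hsf1, the master factor of the response, stood at 62.3, 52.9 and 55.4 FPKM in knockout and 46.5, 45.3 and 46.0 FPKM in control libraries, higher without overlap (log2 change 0.30 ± 0.08 SE, limma adjusted p = 0.098). Hsf2 was untested, at 0.680, 0.860 and 0.970 FPKM in knockout and 1.24, 0.950 and 0.990 FPKM in control libraries. Hspb1, or HSP27, whose transcript is strongly heat-inducible in other cells, was close to absent at 1.48, 1.04 and 0.450 FPKM in knockout and 0.520, 0.0400 and 0.300 FPKM in control libraries, with 1 to 47 reads a library.

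Promoters of the members were searched for heat-shock elements, because HSF1 acts through them. RefSeq promoter windows on GRCm38.p6 run from 250 bases before to 50 after a transcription start, and 41 of the 50 members had 53 such windows. Hspa8, Hspa9, Hspa13, Hsp90aa1, Hsp90ab1, Dnajc2, St13, Hsf1 and Cct4 had none. A run of 3 repeats, GAANNTTC continued by NNGAA or TTCNNGAA continued by NNTTC, on either strand, was found in 7 of 53 member windows (13.2%) and in 198 of 32851 windows of all genes (0.603%). A run of 2 repeats, GAANNTTC or TTCNNGAA, which every run of 3 also contains, was found in 20 member windows (37.7%) and in 15.1% of all windows. Some of the 7 windows repeat a run: both windows of Hsph1 hold the same run, as do both of Dnajb6, and Hspd1 and Hspe1 share theirs. Counted by gene, 3 repeats were found in 12.2% of members with a window and in 0.662% of all genes. The 5 members with 3 repeats were Hsph1, which rose, and Chordc1, Hspd1, Hspe1 and Dnajb6, which were not called. Of the 6 called members with a window, 4 held 2 repeats or more, against 43.9% of members with a window and 17% of all genes. Stip1 and Dnajb1 held no such run. The windows below show the range, from a long run in Chordc1 to none in Dnajb1; each is given 5′ to 3′ on the gene's strand, with the bases of the repeats in capitals.
Hsph1, chr5:149636287-149636586, minus strand: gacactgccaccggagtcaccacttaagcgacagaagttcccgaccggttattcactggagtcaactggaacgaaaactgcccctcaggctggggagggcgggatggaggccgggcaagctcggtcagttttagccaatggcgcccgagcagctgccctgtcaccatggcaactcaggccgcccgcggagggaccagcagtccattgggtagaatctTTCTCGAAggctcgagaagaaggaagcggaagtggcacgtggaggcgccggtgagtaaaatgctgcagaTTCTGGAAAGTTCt
Hspa1b, chr17:34959189-34959488, minus strand: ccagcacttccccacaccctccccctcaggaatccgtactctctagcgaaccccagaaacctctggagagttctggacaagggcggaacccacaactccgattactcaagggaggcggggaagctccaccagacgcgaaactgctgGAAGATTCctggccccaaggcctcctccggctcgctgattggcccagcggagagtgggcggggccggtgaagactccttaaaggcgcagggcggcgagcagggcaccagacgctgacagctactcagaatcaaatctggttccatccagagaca
Chordc1, chr9:18292017-18292316, plus strand: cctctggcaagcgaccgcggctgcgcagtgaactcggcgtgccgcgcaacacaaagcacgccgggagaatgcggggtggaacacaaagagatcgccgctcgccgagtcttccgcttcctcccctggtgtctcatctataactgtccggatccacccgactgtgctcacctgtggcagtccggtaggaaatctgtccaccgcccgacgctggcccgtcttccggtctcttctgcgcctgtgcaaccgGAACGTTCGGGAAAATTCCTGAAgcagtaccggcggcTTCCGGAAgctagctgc
Hspd1, chr1:55087883-55088182, minus strand: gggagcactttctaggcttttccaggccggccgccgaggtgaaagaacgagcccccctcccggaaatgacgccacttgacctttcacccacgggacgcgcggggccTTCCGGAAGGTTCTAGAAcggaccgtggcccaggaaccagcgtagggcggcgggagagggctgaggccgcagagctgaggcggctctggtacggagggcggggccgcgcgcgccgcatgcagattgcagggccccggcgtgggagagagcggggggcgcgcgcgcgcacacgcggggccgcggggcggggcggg
Dnajb6, chr5:29735648-29735947, plus strand: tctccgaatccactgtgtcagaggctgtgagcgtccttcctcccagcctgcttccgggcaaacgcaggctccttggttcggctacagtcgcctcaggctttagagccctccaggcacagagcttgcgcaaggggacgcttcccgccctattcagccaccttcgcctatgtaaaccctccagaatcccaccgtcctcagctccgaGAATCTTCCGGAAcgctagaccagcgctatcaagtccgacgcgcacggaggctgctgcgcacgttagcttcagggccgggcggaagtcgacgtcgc
Dnajb1, chr8:83607925-83608224, plus strand: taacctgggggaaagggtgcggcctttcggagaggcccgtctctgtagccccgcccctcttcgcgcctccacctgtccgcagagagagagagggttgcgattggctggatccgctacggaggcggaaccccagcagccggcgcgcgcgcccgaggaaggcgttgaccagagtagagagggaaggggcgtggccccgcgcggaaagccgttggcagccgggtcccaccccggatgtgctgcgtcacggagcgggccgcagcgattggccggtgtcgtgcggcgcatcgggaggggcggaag

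In Hsph1 the run of 3 repeats begins 36 bases after the start used for this window, inside the transcript. Hspa1b has a single exact run of 2 repeats 104 bases before its start, and the Hspa1a window is identical to that of Hspa1b at 296 of 300 bases. The element of Hspd1 (chr1:55088059-55088076) is the same stretch that the window of Hspe1 holds, between the divergent starts of the pair. Dnajb6, with 3 repeats 46 bases before the start, stood at 22.4, 20.4 and 22.7 FPKM in knockout and 20.2, 21.2 and 19.0 FPKM in control libraries, with overlap (log2 change 0.11 ± 0.08 SE, limma adjusted p = 0.531). A match describes letters in this window and says nothing of binding, and the absence of one, as in Dnajb1, holds for this window only. The search allowed no mismatch in a repeat, so imperfect repeats beside a match or in windows without one, Hspa1b, Stip1 and Dnajb1 among them, were not counted.

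Each of the 7 called members was highest in knockout library 1 among the 3 knockout libraries, where 37.4% of all tested genes and 19 of the 47 tested members were. Hspa1b was 1.97 times, Dnajb1 1.21 times and Hsph1 1.19 times as high there as the mean of knockout libraries 2 and 3, while Hspd1 stood at 0.865 times and Hsp90aa1 at 0.752 times that mean. The summed level of immediate early genes, known to respond to tissue handling, was also highest in that library among the knockout libraries, at 295, 252 and 253 FPKM in knockout libraries 1 to 3 and 241, 228 and 228 FPKM in control libraries 1 to 3. Of 12 tested genes of that list 5 had an unadjusted p below 0.05 by limma, against 16.4% of all tested genes. Changes were above 0 in 8 and below 0 in 4, and 1 was called higher, against 0.566% of all. The called gene, Egr1, was highest in knockout library 2, at 15.6, 18.7 and 15.7 FPKM in knockout and 11.9, 9.83 and 9.67 FPKM in control libraries. The part of handling in the chaperone values was not tested. Without knockout library 1, the log2 changes of Hspa8, Hspa1b, Hsph1 and Dnaja1 were 0.80, 1.41, 0.84 and 0.61 (limma adjusted p = 0.00685, 0.0151, 0.0148 and 0.0151), and 4 members were called in place of 7.

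Genes that work beside the members were compared in the same limma fit, in which 16.4% of all tested genes had an unadjusted p below 0.05. Of 14 further HSP90 co-chaperones 0 passed the threshold by limma, 4 had an unadjusted p below 0.05 and 13 had changes above 0, with a median of 0.15, against 53.4% of all tested genes above 0. Among them Cacybp stood at 99.0, 120.2 and 109 FPKM in knockout and 86.7, 87.2 and 89.3 FPKM in control libraries (limma adjusted p = 0.0974). Of 15 tested HSP70 co-chaperones outside the set, 0 passed and 3 had an unadjusted p below 0.05, close to the share of all genes. Their median change was 0.04. Dnajb12, an HSP40 of the endoplasmic reticulum membrane, averaged 6.66 FPKM in knockout and 8.62 FPKM in control libraries. Of 13 genes of mitochondrial import and proteolysis, 0 passed and 3 had an unadjusted p below 0.05, also close to that share. Their median was 0.12. Among them Grpel1, the exchange factor of Hspa9, averaged 30.5 FPKM in knockout and 25.5 FPKM in control libraries, and the protease gene Lonp1 averaged 39.7 FPKM in knockout and 33.98 FPKM in control libraries. The 9 tested prefoldin and TRiC cofactor genes and the 31 proteasome genes had 0 calls, 0 with an unadjusted p below 0.05, and medians of -0.003 and 0.001. Of 7 other small heat-shock proteins 4 were tested and 0 called by limma, with 0 at an unadjusted p below 0.05, and Hspb11 averaged 7.34 FPKM in knockout and 6.78 FPKM in control libraries.

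Of 9 other genes known as targets of HSF1, 0 rose and 1 fell, with a median log2 change of 0.006. Over all tested genes 0.566% were called higher and 0.996% lower, shares that also stand beside the 2 lists that follow. The gene that fell was Hmox1, haem oxygenase 1, which also answers to NRF2, at 10.02, 13.5 and 10.6 FPKM in knockout and 19.2, 20.1 and 21.3 FPKM in control libraries (limma adjusted p = 0.0112). Zfand2a, a heat-inducible partner of the proteasome, averaged 6.15 FPKM in knockout and 5.17 FPKM in control libraries without being called. Of 15 chaperones of the endoplasmic reticulum, 0 rose and 1 fell, and 11 had changes below 0. The changes were above 0 in 4, against 53.4% of all tested genes, and the median log2 change was only -0.032. Hspa5, the HSP70 of that compartment, was at 206, 182 and 176 FPKM in knockout and 149, 167 and 154 FPKM in control libraries (limma adjusted p = 0.158), and the gene that fell, Pdia3, averaged 229 FPKM in knockout and 290 FPKM in control libraries (limma adjusted p = 0.0401). Of a list of 4 cold-responsive genes, 0 rose and 2 fell, both RNA-binding protein genes, against 0.996% of all tested genes called lower. Cirbp fell to 43.6, 41.3 and 41.0 FPKM in knockout, against 73.6, 74.8 and 83.7 FPKM in control libraries (limma adjusted p = 0.000512). Rbm3 fell to 55.6, 51.9 and 53.5 FPKM in knockout, against 65.8, 68.3 and 71.6 FPKM in control libraries (limma adjusted p = 0.0391). The other 2, Clk1 and Clk4, had changes above 0 without being called, and 1 of them was higher in knockout libraries without overlap. An unadjusted p below 0.05 by limma was found in 3 of the 4 genes, against 16.4% of all.

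**Figure D5:**
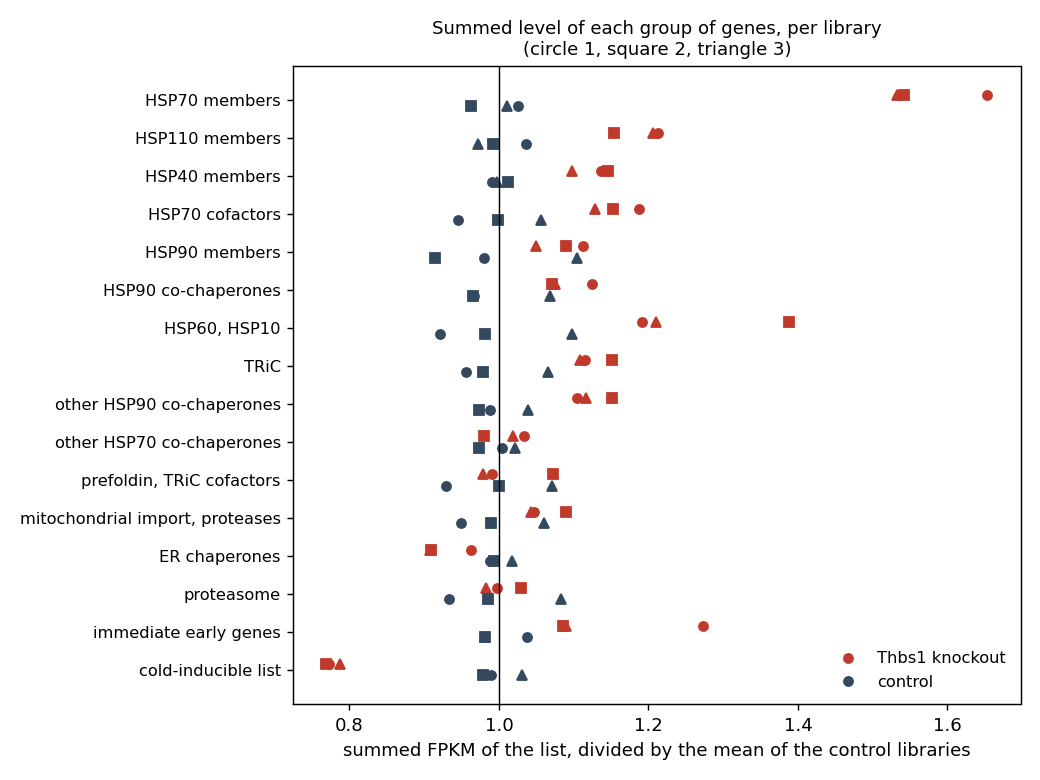
Summed FPKM of each group of genes in every library, divided by the mean of the 3 control libraries; knockout points are drawn above control points in each row. Among the groups drawn HSP70 stands highest, with knockout sums of 878, 819 and 814 FPKM against 545, 512 and 537 FPKM in control libraries, and the cold-inducible list lowest.

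Summed over all 50 members, the level was 4963, 4922 and 4767 FPKM in knockout and 4004, 3990 and 4361 FPKM in control libraries, a ratio of means of 1.19. Without Hspa8 and Hsp90ab1, the sums were 3567, 3648 and 3525 FPKM in knockout and 3037, 3096 and 3309 FPKM in control libraries, a ratio of 1.14. The direction of single members away from HSP70 depends on the scale. FPKM of all genes summed to 329400 to 339700 in knockout and 373900 to 408700 in control libraries. Rescaled so that each library sums to 1000000 (TPM), all tested genes shifted upward in knockout libraries by a median of 0.19, and 30 members were called higher where 13.2% of all 15277 genes tested on that scale were. Relative to that shift the members' median change was 0.18, against 0.15 relative to all genes on the FPKM scale. Cct2, Hspa4, Dnajc2, Dnajc7, Dnajc8 and Ptges3 had changes above 0 on the TPM scale and Bag6 stayed below 0.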

How the data were processed

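RNA of sorted bone marrow stem cells was sequenced in 3 Thbs1 knockout and 3 control libraries. Per the labels' protocols, libraries were made with the SMART-Seq v4 kit. FastQC 0.11.5, STAR and edgeR, with the builds GRCm38 and mm10, are listed in the submitters' processing notes without their roles; the annotation used was not given in the sources used here. FPKM values for 52183 genes were deposited by the authors, and the unit is taken from the name of the deposited table.

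All identifiers matched GENCODE M21, which gave positions and exon lengths. Depth was the number of reads that made most values of genes with up to 400 bases of exon whole within 0.1 read (99.4% or more). Numbers of reads were worked back from FPKM, exon length and this depth. Between libraries of the same group they differed by more than counting error, with a chi-square per degree of freedom of 8.05 to 15.5. Genes with at least 1 FPKM in 3 of 6 libraries entered limma 3.58.1 (R 4.3.3; log2(FPKM + 1), trend, two-sided), with p adjusted by Benjamini-Hochberg over all 12555 genes; this scale understates changes of low genes. The code of the fit was run on simulated normal data drawn with the fit's own variances. The changes added there were larger than those of Dnajb1, Stip1 and Fkbp4, so that run does not test the calls made here. Transcripts were compared with blastn 2.17.0 (identity of 95% or more over at least 300 bases).

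Members, lists and the rule for named genes (called members and the 20 with the smallest p in full, up to 4 genes a list) were chosen with earlier results of these data known; cell type markers were named after their values were seen. Alternatives were no filter, a pseudocount of 0.1, at least 5 FPKM on average, TPM, median-of-ratios and quantile scaling, no trend, array weights, a merged Hspa1a and Hspa1b row, a replicate block and leaving out each library; scaling to reads of long nuclear genes was added after seeing the data.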

Additional observations from a re-analysis of the deposited data

How the results depend on the processing

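In every setting run, 0 members were called lower and the median change of the members stayed above 0. Against 7 members, 71 genes higher and 125 lower, no filter on low values gave 1 member (Dnaja1), 8 genes higher and 16 lower among 35246 genes; TPM gave 30 members, a median of 0.371, 2016 higher and 128 lower, so that 94% of calls were higher in place of 36.2%; eBayes without a trend gave 4 members, 24 higher and 65 lower; a mean of at least 5 FPKM and array weights each gave 112 higher. Leaving out 1 library gave 4 to 6 members, 16 to 38 genes higher and 43 to 77 lower. The cause was not tested. The remaining settings, the replicate block aside, gave 6 to 10 members.

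With the replicate number as a block, 4 members, 27 genes higher and 54 lower were called. Deviations from the group mean correlated at -0.11, 0.0372 and -0.0791 between libraries of the same number, and at -0.1 to 0.19 between unlike numbers. With 3 libraries a group these values cannot show whether the numbers mark a shared batch, and the main fit does not use them. Hspa8, Hsph1, Dnaja1 and Hspa1b kept their calls in every setting that tested them (Hspa1b lies below a mean of 5 FPKM) but no filter, where Dnaja1 alone held (adjusted p of 0.0491, against 0.0555, 0.0764 and 0.159 for Hspa8, Hsph1 and Hspa1b). Each called member had at least 69 reads in every library.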

Other observations

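The tested members with a promoter window fall into 3 descriptive groups by heat-shock element. The 5 with a run of 3 repeats had a median log2 change of 0.36, from 0.11 for Dnajb6 to 0.91 for Hsph1. Hspd1 and Hspe1 count separately there although they share the same element, and the median is the value of Hspd1. The 11 with a run of 2 repeats had a median of 0.19, from -0.02 for Cct2 to 1.70 for Hspa1b, and the 22 with neither had a median of 0.14, from -0.29 for Bag6 to 0.48 for Dnajb1. Called members occurred in each group, with 1, 3 and 2. Hspa8, Hspa9, Hspa13, Hsp90aa1, Hsp90ab1, Dnajc2, St13, Hsf1 and Cct4 are in none of them for want of a window. The groups are small, their ranges overlap, and the difference between their medians was not tested.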
